A study of Mus musculus with 4 samples.

Results

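Methylation was examined at 10 epithelial antimicrobial defence genes of the mouse, among 21410 autosomal protein-coding genes of the annotation. The genes were chosen by name, with earlier results of these data known: the lectins Reg3b and Reg3g, the goblet cell protein Retnlb, the lysozyme Lyz1, the ribonuclease Ang4, the flagellin-binding protein Lypd8, the immunoglobulin transporter Pigr, the nitric oxide synthase Nos2, and the oxidase Duox2 with its maturation factor Duoxa2. All 10 were found in the GENCODE M1 annotation of the mm9 genome, where Lypd8 is listed under the older name 2210415F13Rik. For each gene, 200-bp bins from 5000 bp before the transcription start site (TSS) to the gene end were taken, and 425 of the 666 bins with a CpG held at least 2 CpGs and at least 10 methylation calls in all libraries and were tested.

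The libraries were whole-genome bisulfite sequences of DNA from the colon of C57 mice, in which unmethylated cytosines are converted and read as T. Intestinal stem cells (ISCs) were sorted as Lgr5-EGFP-positive cells, and differentiated epithelial cells as EpCAM-positive, Lgr5-EGFP-negative cells, at birth (P0) and on postnatal day 21 (P21), near the end of suckling. The mice came from crosses of the Lgr5-EGFP-CreER reporter line to wild-type C57 animals, and several mice were pooled for each library: whole litters at P0, and reporter-positive offspring at P21. Whether pups without the reporter entered the pools at P0, and whether the ISCs and differentiated cells of an age came from the same mice, is not given in the sources used here. The 4 groups (ISCs at P0, ISCs at P21, differentiated cells at P0, differentiated cells at P21) had 1 library each, so no difference could be set against a spread between animals. The reporter is expressed in a mosaic fashion in this line, and reporter-negative cells can include stem cells. In DNA of many cells, a partial mark in every cell and a full mark in part of the cells cannot be told apart.

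The intestinal epithelium keeps bacteria at a distance with several kinds of protein. Reg3b, Reg3g, Lyz1, Ang4, Retnlb and Lypd8 are secreted or surface proteins that kill bacteria, bind their cell walls or hold motile bacteria away from the cells. In the paper, lysozyme staining marked Paneth cells of the small intestine. Pigr carries dimeric immunoglobulin A from the basal side of the cell to the lumen. Duox2, which needs Duoxa2 to leave the endoplasmic reticulum, makes hydrogen peroxide at the apical surface, and Nos2 makes nitric oxide. DNA methylation at CpGs is low at most promoters that hold a CpG island (CGI, a stretch dense in CpGs) and usually high elsewhere, except at active regulatory elements.

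Each library held between 1023427645 and 1188114423 calls, of which 50.5% to 63.7% fell on positions with over 1000 calls each, and the median CpG had 15 to 25 calls. Such positions were not removed, but no tested bin of the 10 genes had more than 1018 calls in a library, and the median bin of the genes had 56 calls in ISCs at P0, 60 in ISCs at P21, 90 in differentiated cells at P0 and 75 in differentiated cells at P21. Promoters of the epithelial genes Cdh1, Cdx1, Cdx2, Epcam, Vil1 and Lgr5 were methylated at 0% to 5.91% in the 4 libraries, while the promoter of Krt20 lay between 51.4% and 56.1%. Of the leukocyte and endothelial markers, Cd3e, Cd79a, Lyz2, Cdh5 and Pecam1 had promoter levels between 65.4% and 89.0% in every library. The promoter of the pan-leukocyte gene Ptprc was methylated at 75.7% and 77.1% at P0 and at 68.8% and 66.3% at P21, in ISCs and differentiated cells respectively, and the part of leukocytes in the results below was not tested. The promoters of Coro1a, Col1a2 and Pdgfra reached at most 13.1% and so do not separate the cell types.

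A few sequences are shown because the results below describe the CpGs in them. They were read from the mm9 genome in the direction of the gene, with every CpG in capitals. The first 4 are the 250 bases before a TSS, where methylation was lost with age at Pigr, was low throughout at Duoxa2, and was low at Reg3b and Lyz1 inside otherwise methylated promoters. The other 4 are bins within introns, which gained methylation at Duoxa2 and Nos2 (intron 2) and lost it at Lypd8 and Nos2 (intron 3).
Pigr promoter (chr1:132723011-132723260, plus strand): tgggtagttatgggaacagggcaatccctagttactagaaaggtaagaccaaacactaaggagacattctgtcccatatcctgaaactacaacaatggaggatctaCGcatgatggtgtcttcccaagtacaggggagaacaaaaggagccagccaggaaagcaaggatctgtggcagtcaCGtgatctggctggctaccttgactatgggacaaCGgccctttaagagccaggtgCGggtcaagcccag
Duoxa2 promoter (chr2:122124386-122124635, plus strand): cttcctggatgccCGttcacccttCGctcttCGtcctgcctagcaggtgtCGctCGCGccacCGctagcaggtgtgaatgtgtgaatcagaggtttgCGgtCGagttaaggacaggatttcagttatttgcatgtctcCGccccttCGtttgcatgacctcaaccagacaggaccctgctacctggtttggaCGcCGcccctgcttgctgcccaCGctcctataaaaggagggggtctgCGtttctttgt
Reg3b promoter (chr6:78320629-78320878, plus strand): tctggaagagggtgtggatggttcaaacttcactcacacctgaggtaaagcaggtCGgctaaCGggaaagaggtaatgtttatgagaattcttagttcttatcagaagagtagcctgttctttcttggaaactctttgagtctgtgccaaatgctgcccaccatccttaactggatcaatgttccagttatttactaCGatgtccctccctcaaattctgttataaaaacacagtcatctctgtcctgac
Lyz1 promoter (chr10:116729925-116730174, minus strand): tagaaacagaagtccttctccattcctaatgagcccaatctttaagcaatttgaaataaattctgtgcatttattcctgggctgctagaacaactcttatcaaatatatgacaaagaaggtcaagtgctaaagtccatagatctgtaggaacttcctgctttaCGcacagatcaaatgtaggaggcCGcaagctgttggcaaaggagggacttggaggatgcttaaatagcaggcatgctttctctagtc
Duoxa2 intron 1 (chr2:122125601-122125800, plus strand): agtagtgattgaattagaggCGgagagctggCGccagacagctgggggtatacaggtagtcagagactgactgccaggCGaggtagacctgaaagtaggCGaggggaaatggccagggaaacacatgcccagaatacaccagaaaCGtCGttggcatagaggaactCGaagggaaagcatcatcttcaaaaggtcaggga
Lypd8 intron 1 (chr11:58193401-58193600, plus strand): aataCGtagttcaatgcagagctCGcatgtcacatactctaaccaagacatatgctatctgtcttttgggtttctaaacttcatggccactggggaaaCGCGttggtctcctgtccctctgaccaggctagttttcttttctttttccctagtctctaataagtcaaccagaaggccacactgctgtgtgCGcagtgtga
Nos2 intron 2 (chr11:78739201-78739400, plus strand): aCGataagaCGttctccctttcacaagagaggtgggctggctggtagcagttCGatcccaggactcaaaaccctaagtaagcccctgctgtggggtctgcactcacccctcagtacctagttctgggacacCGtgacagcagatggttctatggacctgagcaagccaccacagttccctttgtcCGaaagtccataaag
Nos2 intron 3 (chr11:78743001-78743200, plus strand): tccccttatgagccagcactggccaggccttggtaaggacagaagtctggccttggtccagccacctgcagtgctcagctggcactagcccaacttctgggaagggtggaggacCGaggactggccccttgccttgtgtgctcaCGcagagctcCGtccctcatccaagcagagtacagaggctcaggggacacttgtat

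Over all 10 genes, the comparison of P21 with P0 asked which stretches differed with maturation. A bin was called a maturation-associated differentially methylated region (mDMR) when Fisher's exact test on its calls gave an adjusted p below 0.05, by Benjamini-Hochberg over all 4076373 autosomal bins, and the difference was over 15 percentage points. With 1 library per group, this test compares the libraries and not the conditions, and calls on neighbouring CpGs of a read are not independent. In ISCs 53 of the 425 bins (12.5%) were called, 27 gains and 26 losses, where 2.55% of all bins were called, 1.07% as gains and 1.48% as losses. In differentiated cells 64 bins (15.1%) were called, 30 gains and 34 losses, against 2.85% of all bins, 0.992% as gains and 1.86% as losses. Of the calls, 43 bins had the same direction in both populations and none the opposite, which was 81.1% of the ISC calls and 67.2% of the calls in differentiated cells. Over all bins, 37822 were called in the same direction in both, which was 36.3% and 32.5% of the calls. Because the genes were chosen with earlier results of these data known, these shares describe the set and do not test it.

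The calls were unevenly spread over the genes. Pigr and Lypd8 held losses only (16 and 6 in ISCs, 20 and 4 in differentiated cells), and the 98 bins of Duox2 and Duoxa2 held mostly gains (19 gains and 2 losses in ISCs, 21 gains and 4 losses in differentiated cells). Nos2 held both, with 8 gains and 2 losses in ISCs and 9 gains and 4 losses in differentiated cells. The 74 bins of Reg3b, Reg3g, Retnlb, Lyz1 and Ang4 held no call in ISCs and 2 losses in differentiated cells. Without Pigr, Duox2 and Duoxa2, 16 of 252 bins (6.35%) were called in ISCs and 19 (7.54%) in differentiated cells. When calls were divided by the number of CpGs of a bin, a stricter count of independent reads that was chosen after seeing the data, 9 bins were called in ISCs, 7 losses at Pigr and 2 gains shared by Duox2 and Duoxa2, and 16 were called in differentiated cells, where 0.077% and 0.209% of all bins were called.

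**Figure D1:**
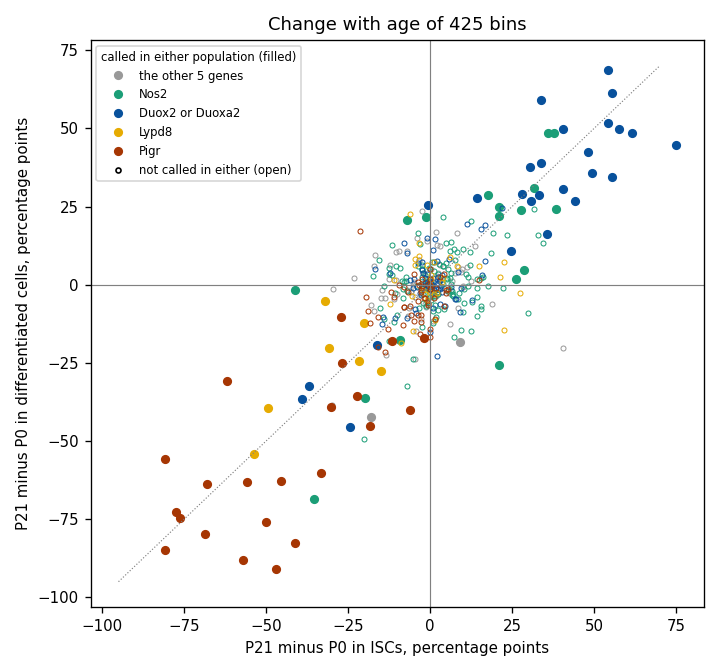
Change in methylation level from P0 to P21, in percentage points, of the 425 tested bins in ISCs (horizontal axis) and in differentiated cells (vertical axis). Each point is a bin, filled where it was called in either population and coloured by gene, and the dotted line marks equal change. The called bins of Pigr lie in the lower left and most of those of Duox2 or Duoxa2 in the upper right, and the changes of the populations had a Pearson r of 0.78 across bins, which share libraries and neighbouring reads and are not independent, against 0.27 over all bins.

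Calls were also pooled over fixed regions of each gene: the promoter (1000 bp on either side of the TSS), the upstream stretch (from 5000 bp to the promoter), the last exon, and the body (the rest of the transcript). The tests and intervals of these regions count every call as independent, although calls of a read are not. Division of calls by the number of CpGs was applied to bins only, so its effect on regions is not known. Of the 10 promoters, 2 were called in each population, Pigr and Lypd8, both as losses. Of 20679 promoters tested, 1.81% were called in ISCs and 1.61% in differentiated cells. Only Duox2 and Duoxa2 among the members have a CGI at the promoter, and of the 8048 promoters without one, 4.03% were called in ISCs and 3.57% in differentiated cells. Among bodies, 1 of 10 was called in ISCs (Duoxa2, a gain) and 1 in differentiated cells (Pigr, a loss), where 1.03% and 1.0% of all bodies were called. The last exon of Duoxa2 was called in both populations, 1 of the 8 last exons tested, where 3.22% and 2.82% of all last exons were called. Of the upstream stretches, 3 of 10 were called in ISCs (Duox2, Duoxa2, Retnlb) and 2 in differentiated cells (Duoxa2, Retnlb), where 1.82% and 1.68% of all were called.

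**Figure D2:**
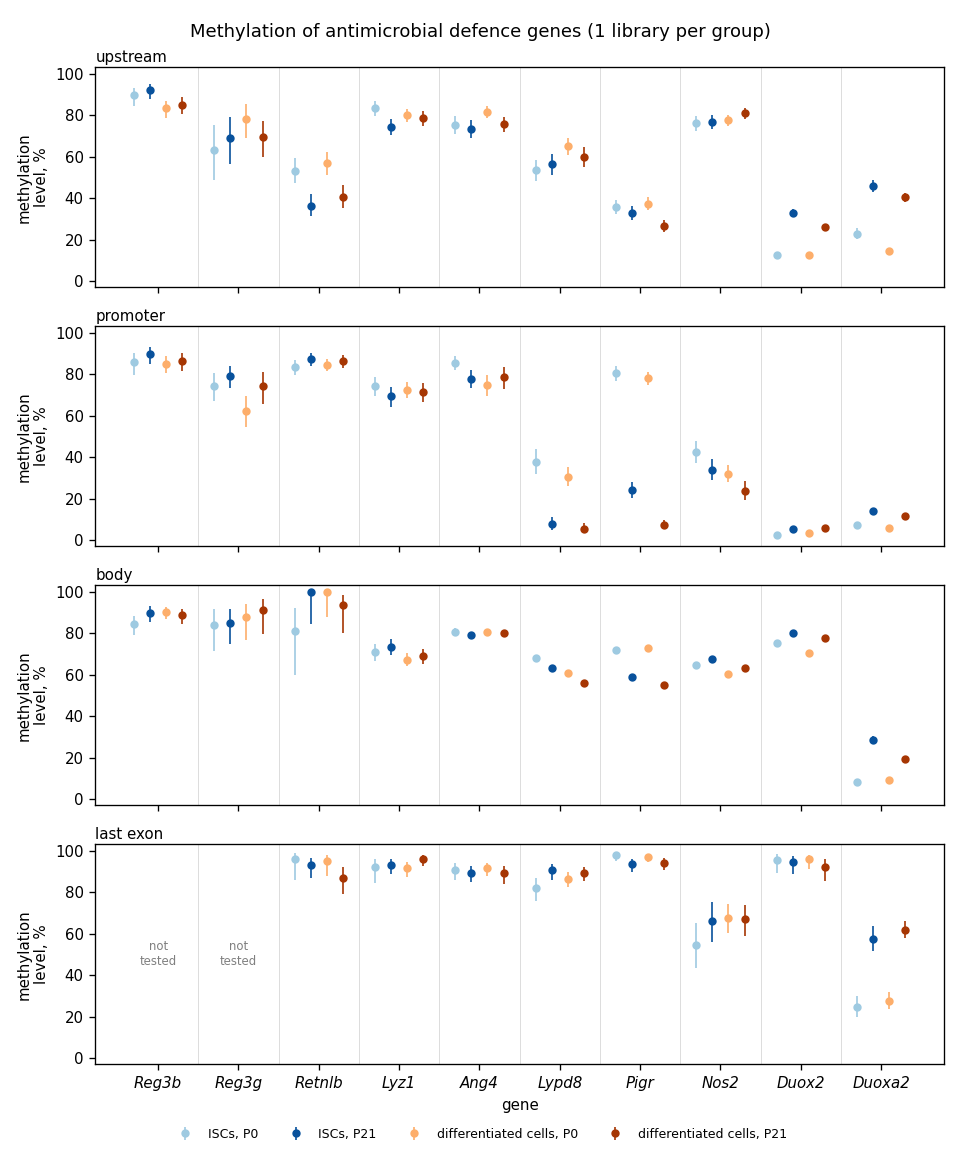
Methylation level, in percent of calls, of the upstream stretch, promoter, body and last exon of each gene in the 4 libraries, with 95% Wilson intervals that cover counting error only. The promoters of Pigr and Lypd8 are lower at P21 in both populations, the Duoxa2 last exon and upstream stretch are higher, and the last exons of Reg3b and Reg3g held no bin with enough calls.

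Pigr (ENSMUSG00000026417, plus strand, chr1:132723261-132748826) showed the largest promoter loss of the members. Its promoter was methylated at 80.7% in ISCs at P0 (95% interval 76.7 to 84.1, 430 calls) and at 23.9% at P21 (20.2 to 28.1, 447 calls). In differentiated cells the levels were 78.3% (74.9 to 81.3, 644 calls) and 7.36% (5.58 to 9.64, 639 calls). The levels at P0 were thus close in the 2 populations, and those at P21 were apart. The change with age was -56.8 points in ISCs (interval -61.8 to -51.0, Fisher's exact test, adjusted p = 7.64e-64 over all promoters) and -70.9 points in differentiated cells (-74.4 to -66.8, adjusted p = 2.20e-159).

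The loss in differentiated cells was 14.1 points larger than in ISCs (difference of the changes -14.1, 95% interval -20.8 to -7.53), a difference that passed the adjusted Wald test, as 12.3% of all promoters did. At P21 the promoter was 16.6 points lower in differentiated cells than in ISCs (Fisher's exact test, adjusted p = 1.31e-12), where 0.803% of all promoters and 1.67% of those without a CGI were called between the populations at that age. With a promoter of 500 bp on either side of the TSS this call was lost, and 0.663% of all promoters were called. At P0 the promoters of the populations were not called apart (adjusted p = 0.52, Fisher's exact test).

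The loss began before the first exon and ran into intron 1. A run of 8 bins (chr1:132722801-132724600, from -461 to 1339 bp of the TSS, 20 CpGs) fell from 81.8% to 18.2% in ISCs and from 80.3% to 4.59% in differentiated cells. In the 250 bases printed above, the 4 CpGs together had 67.4% and 71.6% at P0 and 6.99% and 1.81% at P21, in ISCs and differentiated cells. The second of these CpGs, at -69, lies in the only CACGTG (an E-box, the letters bound by several helix-loop-helix factors, at -71) found in the promoter windows of the members from 250 bases before to 50 after the TSS; 7.76% of all 21410 such windows held these letters. That CpG was read as methylated in 67.7% of 31 calls and 78.5% of 65 calls at P0, and in 2.56% of 39 calls and 2.63% of 76 calls at P21. The CpG at -35 went from 65.8% and 58.8% to 0 of 43 calls and 0 of 84 calls. Farther out, the CpG at -600 went from 100% and 90.7% to 33.3% and 19.4%, and that at -993 was at 100% and 95.8% at P0 and at 90% and 73.7% at P21, on 17 to 24 calls. A bin still farther out, with its centre at -1361 bp, was at 93.2% and 75% in ISCs and was not called there, and it fell from 100% to 54.9% in differentiated cells (Fisher's exact test, adjusted p = 2.38e-07).

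A second stretch of loss lay deep in intron 1 of Pigr. In 5 bins between 4139 and 5339 bp after the TSS (chr1:132727401-132728600, 14 CpGs), the level was 64.4% in ISCs at P0 and 9.43% at P21, and 71.4% and 7.48% in differentiated cells. A bin between the 2 stretches, at 2839 bp, went from 90.3% to 33.3% and from 96.2% to 8%. Losses continued at lower size in intron 2 (75.2% to 48.4% and 75.7% to 36.6% over chr1:132734201-132735200) and in exon 3 (53.8% to 28.0% and 47.2% to 25.3% over chr1:132738001-132738400). The last exon of Pigr was at 97.9% and 96.8% at P0 and at 93.5% and 94.0% at P21, and was not called. Over the whole gene, 22 bins were called in either population, all losses, 14 of them in both.

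Of the bins between ISCs and differentiated cells of the same age, Pigr had none called at P0 and 1 at P21. That bin, 639 bp after the TSS, was at 34.0% in ISCs and 1.85% in differentiated cells. It was not called with calls divided by the number of CpGs. Over all 10 genes, 6 bins were called between the populations at P0, 5 of them in Nos2 and 1 in Ang4, and 2 at P21, 1 in Pigr and 1 in Nos2, where 0.508% and 0.182% of all bins were called. Most of the calls at P0 were not stable: 1 bin was called with thinned calls, 1 with over 30 points, 1 with bins shifted by 100 bp, and none with calls divided by the number of CpGs. Of all bins, 0.0921%, 0.183%, 0.508% and 0.00032% were called at P0 in these settings. The body of Pigr was lower by 12.8 points in ISCs at P21, below the threshold of 15, and by 17.5 points in differentiated cells (Fisher's exact test, adjusted p = 5.10e-73). These changes differed by -4.66 points (95% interval -7.49 to -1.83) and passed the adjusted Wald test, as 13.4% of all bodies did.

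**Figure D3:**
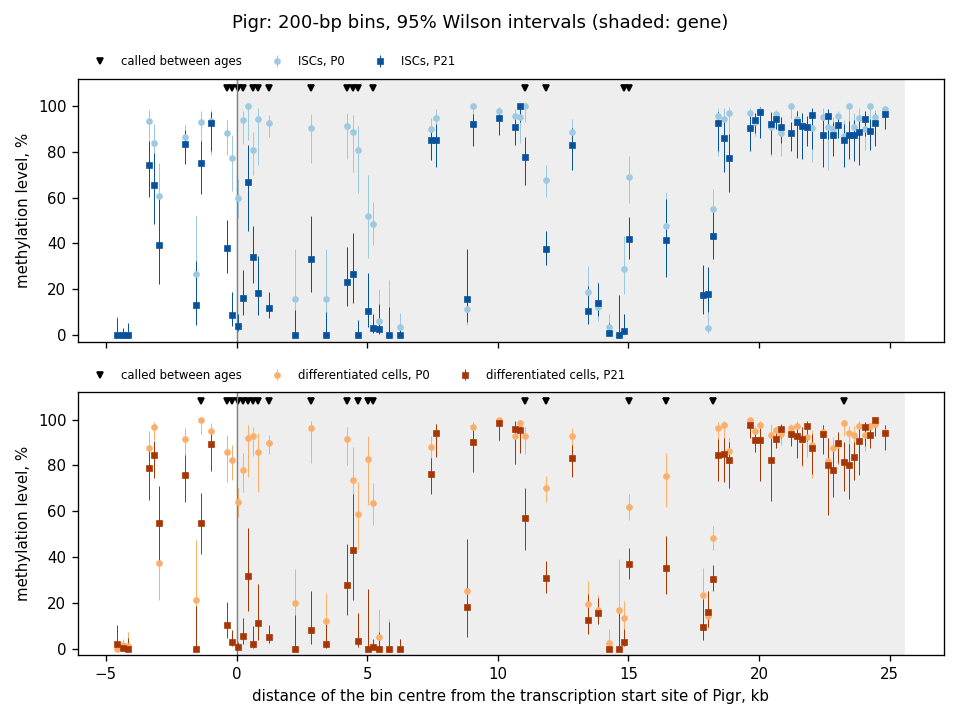
Methylation level of the tested bins of Pigr against the distance of their centre from the TSS, in ISCs (top) and differentiated cells (bottom) at P0 and P21, with 95% Wilson intervals; triangles mark bins called between ages. Bins around the TSS and in the later part of intron 1 are high at P0 and low at P21, while bins in the last part of the gene stay high.

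By the mean absolute difference of promoter levels over the 4 libraries, the promoters most like that of Pigr were those of Tnfsf13 (7.78 points), Fam50b (10.2 points) and Hsd3b3 (10.6 points). For Lypd8 they were Fabp2 (3.22 points), Htr4 (3.23 points) and Gstm7 (3.40 points). Tnfsf13, which encodes a ligand known to support plasma cells that make immunoglobulin A, had promoter levels of 66.4% and 16.7% in ISCs and 72.9% and 11.6% in differentiated cells at P0 and P21.

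Lypd8 (ENSMUSG00000013643, plus strand, chr11:58192545-58204230), a GPI-anchored protein that binds flagella in the colon, started from a lower level. Its promoter was at 37.7% in ISCs at P0 (31.8 to 43.9, 239 calls) and at 7.64% at P21 (5.10 to 11.3, 288 calls). In differentiated cells it was at 30.5% (26.2 to 35.2, 400 calls) and 5.57% (3.71 to 8.29, 395 calls). The changes were -30.02 points (-36.8 to -23.1, adjusted p = 4.69e-15, Fisher's exact test) and -24.9 points (-30.0 to -19.8, adjusted p = 4.00e-19). The 2 populations were close at both ages, and the difference of their changes was 5.09 points (95% interval -3.43 to 13.6), which did not pass the adjusted Wald test.

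The 250 bases before the TSS of Lypd8 hold no CpG, so the promoter value came from the CpGs around it. The bin at 155 bp after the TSS went from 57.1% to 3.33% in ISCs and from 54.2% to 0% in differentiated cells (0 of 56 calls, Wilson upper limit 6.42%). The intron 1 bin printed above, at 955 bp with 5 CpGs, went from 50.6% to 1.27% and from 43.8% to 4.49%. The bin at 1955 bp went from 30.1% to 8.55% and from 34.9% to 10.3%. All 7 called bins of Lypd8 were losses, 3 of them in both populations, and 4 of the 7 lay in intron 1. With calls divided by the number of CpGs, no bin of Lypd8 was called in ISCs and 1 in differentiated cells. Its body differed by less, -4.80 and -4.92 points, and its last exon stayed between 82.0% and 90.5%.

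Duox2 (ENSMUSG00000068452, minus strand, chr2:122104983-122124185) and Duoxa2 (ENSMUSG00000027225, plus strand, chr2:122124636-122128621) face away from each other across a short shared stretch, so that 39 bins belong to both by the rule. The shared promoter stayed low. The 250 bases before the Duoxa2 TSS (15 CpGs) were at 1.62% and 0% in ISCs at P0 and P21, and at 0.351% and 0% in differentiated cells. Those before the Duox2 TSS (11 CpGs) were at 1.40% and 1.22%, and at 0.556% and 0.341%. Over the wider promoter window the levels were 2.69% and 5.53% in ISCs and 3.34% and 5.77% in differentiated cells for Duox2, and 7.16% and 13.8%, and 5.92% and 11.7%, for Duoxa2, none of which was called.

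Gains lay on both sides of this unmethylated stretch. On the Duox2 side, 8 bins across exons 4 to 9 (chr2:122120201-122122600, 46 CpGs) were at 28.4% in ISCs at P0 and 67.8% at P21, and at 18.0% and 61.8% in differentiated cells. On the Duoxa2 side, 8 bins from intron 1 to exon 3 (chr2:122125001-122126600, 37 CpGs, 364 to 1964 bp after the TSS) were at 23.6% and 69.8% in ISCs, and at 29.0% and 61.6% in differentiated cells. All 16 bins were called as gains in both populations, but with calls divided by the number of CpGs the locus held 2 calls in ISCs and 6 in differentiated cells. On the Duox2 side the level at P0 was lower at the end near the TSS: the bin 3885 bp from the Duox2 TSS was at 53.7% and 44.5%, and that at 1685 bp at 1.72% and 3.37%. At P21 these bins were at 84.3% and 82.0%, and at 42.1% and 33.9%. On the Duoxa2 side the level at P0 was 11.0% and 21.1% at 464 bp from the Duoxa2 TSS, 38.7% and 43.4% at 1064 bp, and 6.82% and 8.20% at 1864 bp. The bin of Duoxa2 intron 1 printed above (7 CpGs) went from 38.7% to 88.0% in ISCs and from 43.4% to 79.3% in differentiated cells.

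The 3' end of Duoxa2 also gained methylation. In ISCs its last exon (17 CpGs) was at 24.5% at P0 (19.8 to 29.8, 282 calls) and at 57.7% at P21 (51.4 to 63.6, 248 calls). In differentiated cells it was at 27.6% (23.6 to 31.9, 450 calls) and then at 61.9% (57.8 to 65.9, 541 calls). The changes were 33.2 and 34.4 points (adjusted p = 7.88e-13 and 1.68e-25, Fisher's exact test), and their difference was 1.17 points (interval -8.66 to 11.0). This exon overlaps the 3' end of Duoxa1, the maturation factor of Duox1, which is read from the other strand and ends at position 122127927, so the gain cannot be assigned to one gene. The CGI inside the 3' part of Duoxa2 (chr2:122127019-122128061, 57 CpGs) was at 4.34% and 21.5% in ISCs and at 4.67% and 13.5% in differentiated cells. The 2 CGIs nearer the TSSs, of 34 and 46 CpGs, stayed at or below 6.47% in every library.

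In pooled calls, some regions of this locus gained more in ISCs. Such levels also move with the share of calls that falls on the CGI of 57 CpGs. This CGI had 1083 and 876 calls in ISCs and 2464 and 2351 in differentiated cells, at P0 and P21. The differences between the populations were not tested with equal weight per CpG. The body of Duoxa2 went from 8.22% to 28.4% in ISCs and from 9.08% to 19.5% in differentiated cells, and the second change was smaller by 9.82 points (difference -9.82, 95% interval -12.7 to -6.91, past the adjusted Wald test). The upstream stretch of Duox2, which covers Duoxa2, went from 12.6% to 33.1% and from 12.6% to 26.1%, a difference of -6.95 points (95% interval -9.71 to -4.20) that passed the same test, as 7.95% of all upstream stretches did. At the upstream stretch of Duoxa2, which covers Duox2, the levels were 22.8% and 45.9% in ISCs and 14.4% and 40.4% in differentiated cells, and the changes differed by 2.85 points (95% interval -1.66 to 7.36) and did not pass it.

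Farther from its TSS, Duox2 held called bins of both directions. A run of 4 bins in exon 22 and intron 22 (chr2:122111201-122112000, 12185 to 12985 bp after the TSS) went from 72.4% to 46.0% in ISCs and from 69.2% to 39.1% in differentiated cells, with 2 and 4 of its bins called as losses. Single bins in intron 10 (4685 bp after the TSS, 60.2% to 87.9%) and intron 19 (9485 bp, 62.5% to 88%) were called as gains in differentiated cells, but neither with thinned calls. The same bins went from 79.7% to 94.0% and from 87.5% to 86.8% in ISCs and were not called there, and the difference between the populations was not tested. The other bins of the Duox2 body were mostly high at both ages, and the body as a whole went from 75.2% to 79.8% and from 70.4% to 77.8%, under the threshold. Duox1, the neighbouring oxidase, had no region called, and its promoter was between 84.4% and 89.1% in the 4 libraries. Duoxa1 had no region called either, with a promoter between 7.37% and 11.8%.

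**Figure D4:**
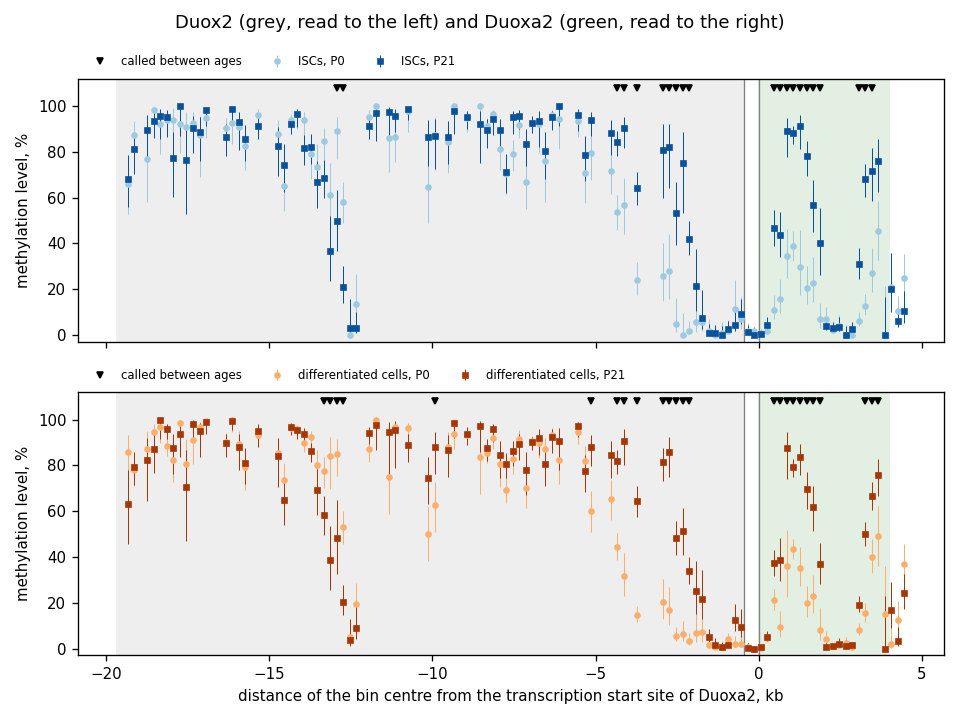
Methylation level of the tested bins of Duox2 and Duoxa2 against the distance from the Duoxa2 TSS, in ISCs (top) and differentiated cells (bottom) at P0 and P21, with 95% Wilson intervals; triangles mark bins called between ages and vertical lines the 2 TSSs. The stretch around the TSSs is near 0% at both ages, and the bins on either side of it are higher at P21 than at P0.

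Nos2 (ENSMUSG00000020826, plus strand, chr11:78734289-78773756), the inducible nitric oxide synthase, changed in opposite directions at different places. Its 250 bases before the TSS (3 CpGs) were at 1.16% and 0% in ISCs and at 3.59% and 1.67% in differentiated cells, at P0 and P21. The wider promoter was at 42.4% and 33.9% in ISCs and at 32.0% and 23.5% in differentiated cells, changes of -8.45 points (adjusted p = 0.094) and -8.52 points (adjusted p = 0.041, Fisher's exact test) that were both under 15 points. In pooled calls it was 10.4 points lower in differentiated cells than in ISCs at each age (Fisher's exact test, adjusted p = 0.0083 and 0.015), also under 15 points. Pooling weights each CpG by its calls, and the 3 nearly unmethylated CpGs before the TSS were read unevenly. They had 86 and 73 calls in ISCs and 195 and 120 in differentiated cells, at P0 and P21. Whether the populations differ with equal weight per CpG was not tested. Most gains lay in intron 2, where 3 bins between 4711 and 5311 bp after the TSS (chr11:78739001-78739600, 12 CpGs) went from 30.4% to 63.7% and from 24.9% to 66.1%. With calls divided by the number of CpGs, no gain of Nos2 was called in either population, and 1 loss was called in differentiated cells.

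A CGI of 63 CpGs (chr11:78738224-78739277), which overlaps the first 2 of these bins, was at 3.07% and 11.6% in ISCs and at 3.61% and 8.50% in differentiated cells. The intron 2 bin printed above (5 CpGs) went from 32.4% to 64.2% and from 36.7% to 67.7%. In intron 3, in contrast, the printed bin of 3 CpGs at 8811 bp went from 35.3% to 0% in ISCs (0 of 43 calls, Wilson upper limit 8.2%) and from 68.4% to 0% in differentiated cells (0 of 100 calls, Wilson upper limit 3.7%). This bin was also called between the populations at P0, but with bins shifted by 100 bp no bin of the 10 genes was called as higher in differentiated cells at that age. The body of Nos2, over 479 CpGs, differed by 3.09 and 2.97 points.

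**Figure D5:**
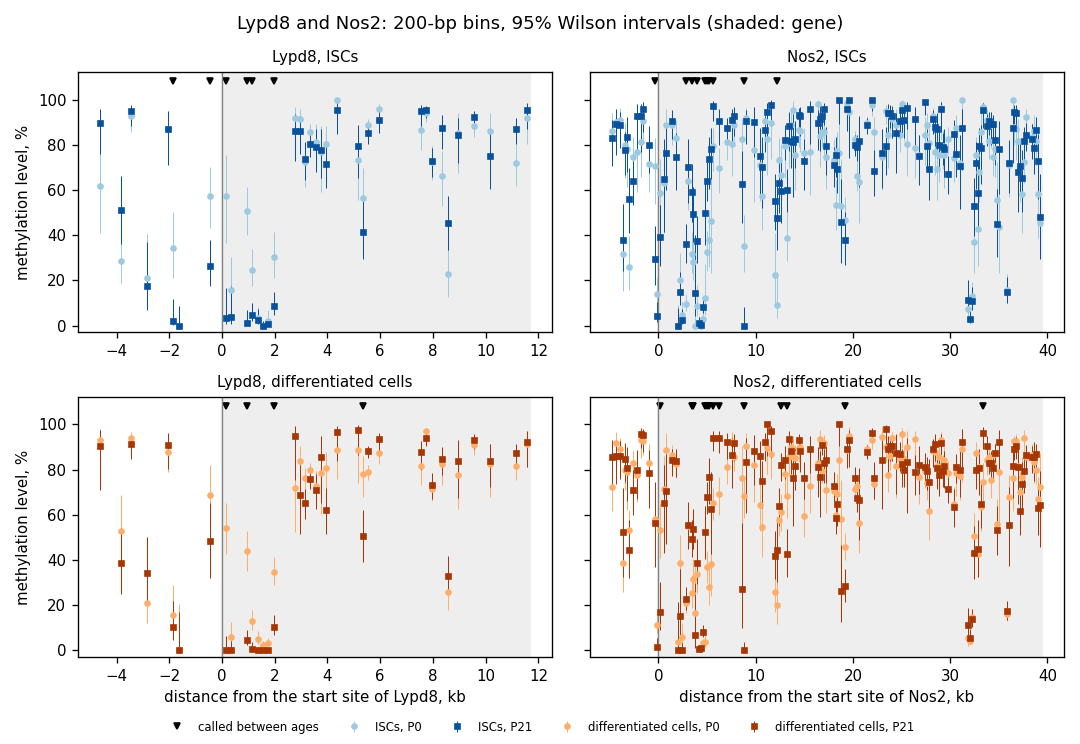
Methylation level of the tested bins of Lypd8 (left) and Nos2 (right) against the distance from the TSS, in ISCs (top) and differentiated cells (bottom), with 95% Wilson intervals; triangles mark bins called between ages. The bins after the TSS of Lypd8 drop to near 0% at P21, and Nos2 shows higher and lower bins at P21 in its first introns.

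The lectin genes Reg3b (ENSMUSG00000071356, plus strand, chr6:78320879-78323460) and Reg3g (ENSMUSG00000030017, minus strand, chr6:78416262-78418868), whose products kill Gram-positive or Gram-negative bacteria, had no called bin, but only 6 bins of each were tested. The promoter of Reg3b was at 85.6% and 89.8% in ISCs and at 85.0% and 86.5% in differentiated cells. That of Reg3g was at 74.4% and 79.2%, and at 62.2% and 74.2%, on 124 to 212 calls. Neither was called: the adjusted p for Reg3b was 0.50 and 0.86 and for Reg3g 0.55 and 0.12 (Fisher's exact test). The change of Reg3g in ISCs, 4.89 points, was not stable: it was 19.6 points and called with the minus strand only (adjusted p = 0.027, Fisher's exact test), -8.52 points with the plus strand only, and 11.9 points with at least 20 calls per bin (adjusted p = 0.045, under the threshold of 15 points). CpGs are few here, with 3 CpGs for Reg3b and 1 for Reg3g in the window of 300 bases around the TSS, against a median of 12 over all genes.

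Close to the TSS, the 3 CpGs of Reg3b printed above were lower than the rest of its promoter, at 9.09% and 12.1% in ISCs and at 25% and 4.88% in differentiated cells, on 22 to 44 calls. Bins with too few calls held 2 of these CpGs, which therefore did not enter the promoter level. The only CpG in the 250 bases before the Reg3g TSS was at 70.6% and 20.8% in ISCs and at 45.8% and 45.5% in differentiated cells, on 11 to 24 calls, and its bin, with this CpG alone, was not tested.

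Lyz1 (ENSMUSG00000069515, minus strand, chr10:116724852-116729924), which cleaves bacterial cell walls, showed a similar dip at its TSS. Its promoter was at 74.3% and 69.3% in ISCs and at 72.6% and 71.5% in differentiated cells and was not called. The bin over exon 1, with its centre 24 bp after the TSS, was at 25% and 7.14% in ISCs (Fisher's exact test, adjusted p = 0.29) and at 45.5% and 3.03% in differentiated cells (adjusted p = 0.00052), the only call in 23 bins, which was lost with bins shifted by 100 bp and with calls divided by the number of CpGs. The 2 CpGs printed above were at 10.3% and 0% in ISCs (0 of 27 calls at P21) and at 18.4% and 0% in differentiated cells (0 of 21 calls at P21). The related Lyz2, the lysozyme of myeloid cells, had a promoter between 72% and 79.1% in every library.

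Ang4 (ENSMUSG00000060615, minus strand, chr14:52383553-52393265), a Paneth and goblet cell ribonuclease, had promoter levels of 85.6% and 77.8% in ISCs and 74.7% and 78.6% in differentiated cells. The difference in ISCs, -7.80 points, had an adjusted p of 0.033 (Fisher's exact test) and was under 15 points. At P0 the promoter was 10.9 points lower in differentiated cells than in ISCs (Fisher's exact test, adjusted p = 0.0019), also under 15 points. Both values weight each CpG by its calls. The highly methylated CpGs at 163, 179 and 200 bp had 52, 63 and 59 calls in ISCs at P0. They had 36, 33 and 41 in ISCs at P21, and 16, 25 and 27 in differentiated cells at P0. Whether the populations differ with equal weight per CpG was not tested. The 3 CpGs in the 250 bases before its TSS were at 58.1% and 40.3% in ISCs and at 27.1% and 34.3% in differentiated cells, on 35 to 67 calls. Of its 28 bins, 1 was called, its centre at -2035 bp of the TSS, at 95.8% and 77.5% in differentiated cells, and the same bin was called at P0 between ISCs (68.7%) and differentiated cells. Both calls were lost with over 30 points and with calls divided by the number of CpGs. The call with age was also lost with thinned calls, and the call at P0 with shifted bins. Retnlb (ENSMUSG00000022650, plus strand, chr16:48816969-48819004), a goblet cell product, had a promoter at 83.5% and 87.4% in ISCs and at 84.5% and 86.3% in differentiated cells. Its upstream stretch (15 CpGs) was lower at P21, from 53.2% to 36.4% (Fisher's exact test, adjusted p = 0.00081) and from 56.8% to 40.5% (adjusted p = 0.00074), although none of its 11 bins was called; under several alternatives these changes were under 15 points.

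Calls in the wider lists are given beside the shares of all regions of the same kind printed above. Among the relatives of the members, 14 of 15 were annotated: of 13 promoters tested, Ang6 (92.0% to 71.8%) and Retnlg (83.5% to 61.2%) fell in ISCs, that is 2 of 13 where 1.81% of all promoters were called (4.03% of those without a CGI), and none was called in differentiated cells, where the body of Reg3d rose from 52.9% to 74.1% and the last exon of Reg4 fell from 32.8% to 10.4%, 1 of 12 bodies and 1 of 11 last exons, where 1.0% and 2.82% of all were called. Among 19 annotated epithelial antimicrobial genes outside the members, 18 promoters were tested, none was called in ISCs, and Itln1, a lectin of goblet cells, fell from 74.7% to 54.9% in differentiated cells, 1 of 18 where 1.61% of all were called. Of their last exons, 3 of 16 were called in ISCs and 1 in differentiated cells, where 3.22% and 2.82% of all were called, each as a loss. Noxo1, which organizes the epithelial oxidase Nox1, fell at its last exon from 22.7% to 0% in ISCs and from 30.4% to 1.11% in differentiated cells. The body of Pglyrp1, which binds peptidoglycan, fell from 71.1% to 46.6% and from 71.3% to 43.0%. The last exon of Pglyrp4 fell in ISCs from 96.4% to 73.8%. The last exon of Pglyrp2 (a loss) and the upstream stretch of Il18 (a gain) were also called in ISCs, and the body of Noxo1 (a loss) in differentiated cells, which made 1 of 18 bodies in ISCs, 2 of 18 in differentiated cells and 1 of 19 upstream stretches in ISCs, where 1.03%, 1.0% and 1.82% of all were called. These 3 were added after their values were seen. Of 12 signalling genes upstream of these defences, such as Il22ra1, Stat3 and Myd88, no promoter, body or upstream stretch was called, and the last exon of Stat3 rose in differentiated cells from 62.8% to 78.3%, 1 of 12 where 2.82% of all were called.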

How the data were processed

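Genomic DNA of sorted colonic cells was ligated to adaptors, treated with bisulfite, amplified and sequenced as paired ends, and the authors mapped the reads to mm9 with Bismark, per the labels. The sources used here give neither its version nor a step on duplicate reads. For each cytosine of a CpG the authors deposited a count of its calls and how many were methylated. The deposited fraction was not used.

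Positions were checked against the mm9 sequence, and 0.465% to 0.850% of them, at no reference CpG, were left out. Both strands were summed, and levels were methylated calls in percent of all calls. Bins of 200 bp and pooled regions of the GENCODE M1 transcript with the longest coding sequence were used where they held at least 2 CpGs and each bin at least 10 calls in all 4 libraries. Two-sided Fisher's exact tests were adjusted over all autosomal bins, or over all genes within a region class, and the difference between the populations in their change was tested with a two-sided Wald test. Intervals of levels are Wilson intervals and those of differences Newcombe intervals (95%), and both cover counting error only, since PCR reads without molecular identifiers are not independent molecules. If duplicates remained, the tests call too much. CGIs were stretches with 25 CpGs or more per sliding window of 500 bp. Motifs were searched on both strands. The bin test was run on simulated independent calls at the observed depths. Such calls cannot show the effect of linked CpGs on a read, duplicates or a spread between animals. The region tests and the Wald test were not simulated.

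All 10 members are named, and of the wider lists genes with a called region, at most 4 per list by size of change; Pglyrp2 and Il18 were named beyond this rule, after their values were seen. The members, the lists and the rule were chosen with earlier results of these data known. Lypd8 was paired with its older name through RefSeq names of a later assembly, and Ang3, Pla2g2a and Ccl28 were not matched and are not analysed here. The alternatives were other minima of calls and CpGs, thresholds of 10 and 30 points, no test, thinned calls, shifted bins, single strands, other averages and other promoter limits; calls divided by the number of CpGs were added after seeing the data. Python 3.11.15 was used with numpy 2.4.6, numba 0.67.0, scipy 1.17.1 and pandas 2.3.3.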

Additional observations from a re-analysis of the deposited data

Results flagged for a closer look

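In 4 regions of the members the change with age differed between the populations by a test of the difference itself, adjusted over all genes, which compares these 4 libraries and not animals. The test counts every call as independent. It was repeated neither with calls divided by the number of CpGs nor with equal weight per CpG. The 4 regions were 1 of 10 promoters, 2 of 10 bodies, 1 of 10 upstream stretches and none of 8 last exons, where 12.3%, 13.4%, 7.95% and 4.20% of all such regions passed this test. The loss at the promoter of Pigr was larger in differentiated cells (change there minus that in ISCs, -14.1 points), as was the loss over its body (-4.66 points). The gain over the body of Duoxa2 was smaller in differentiated cells (-9.82 points), and so was that of the upstream stretch of Duox2 (-6.95 points), which covers the same DNA. No group had enough libraries for a search for outlying samples.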

How the results depend on the processing

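No paired analysis was possible because the groups compared share only replicate number 1, and the labels do not say whether the populations of an age came from the same mice. Called bins of the members numbered 53 in ISCs and 64 in differentiated cells between ages, and 6 at P0 and 2 at P21 between populations. With 15 points and no test these became 107, 100, 52 and 33, or 25.2%, 23.5%, 12.2% and 7.76% of the bins, where 13.5%, 12.0%, 10.6% and 9.47% of all bins passed. With over 30 points, differentiated cells had 42 between ages, and the populations 1 and 1, where 1.06%, 0.183% and 0.0728% of all bins were called. Thinned calls gave 1 and 1 between populations, where 0.0921% and 0.0377% of all bins were called. Bins shifted by 100 bp gave 1 at P0, where 0.508% of all bins were called. A minimum of 1 CpG gave 1 at P21, where 0.119% of all bins were called. With calls divided by the number of CpGs, added after seeing the data, the counts were 9, 16, 0 and 0, where 0.077%, 0.209%, 0.00032% and 4.9e-05% of all bins were called. The other bin alternatives stayed within 1.5 times.

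Called promoters were 2 in each population. With the minus strand only, ISCs had 4, Nos2 (-15.5 points) and Reg3g (19.6 points) being added. In that setting 2.70% of all promoters and 5.42% of those without a CGI were called in ISCs. Called bodies were 1 in each population, 2 in each with a limit of 10 points, and 0 in differentiated cells with the plus strand only. With 10 points 2.62% of all bodies were called in ISCs and 2.58% in differentiated cells, and with the plus strand only 1.20% in differentiated cells. Called upstream stretches in differentiated cells were 2, but 4 with a limit of 10 points, and 1 with the minus strand only or with at least 20 calls. Of all upstream stretches, 5.02%, 2.99% and 1.92% were called in these 3 settings. The 13 called changes of single regions kept their direction under all alternatives and fell under the threshold in 9 of 91 values: the upstream stretch of Retnlb in 6, and Duoxa2 body (14.4 points), Duoxa2 last exon (12.8 points) and Pigr body (-11.9 points) once each. Some of the 91 values could not differ from the main ones. The outermost TSS is the TSS used for every member, and a narrower promoter leaves a last exon unchanged. Duox2 upstream in differentiated cells (15.6 points, plus strand only) and Pigr body in ISCs (-17.0 points, minus strand only) passed it under 1 alternative each. Of the other changes not called, 31 turned in sign under an alternative. Few bins could be tested at Reg3b, Reg3g and Retnlb: of 24, 21 and 24 bins with a CpG, 14, 8 and 15 had the calls, and 6, 6 and 11 of these also had 2 CpGs.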
